A study of Mus musculus with 9 samples.

Results

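The CDK inhibitors and D-type cyclins are the genes that hold the gate between the resting state and DNA replication. The 9 genes described here are the inhibitors Cdkn1a, Cdkn1b, Cdkn2a, Cdkn2c and Cdkn2d, the D-type cyclins Ccnd2 and Ccnd3, and the kinases Cdk4 and Cdk6 that these cyclins activate. They were taken from 22180 named genes by symbol: each had exactly 1 array feature that the platform annotation pairs with that gene alone, so no choice between features was needed. All 9 were among the 12792 genes tested. RNA came from regulatory T cells (Tregs) of C57BL/6 mice. The cells were taken from the lamina propria of both intestines, small and large, and sorted for a Foxp3-linked red fluorescent protein, and their RNA was amplified and hybridized to Affymetrix mouse Gene ST2.0 arrays. The groups were Y3/CD103-/- (3 arrays), Y3 (3 arrays) and WT (3 arrays). The labels name no age, no treatment and no promoter, and do not describe Y3; the series title refers to IL-2Rβ, a subunit of the receptor for IL-2, and to CD103, the integrin chain encoded by Itgae. They also do not say whether an array was 1 mouse or a pool, so p-values measure only the spread between these arrays.

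D-type cyclins bind CDK4 or CDK6 in response to growth signals, and in T cells Ccnd2 and Ccnd3 are induced by antigen and IL-2. The active kinases phosphorylate the retinoblastoma protein, which releases E2F factors to switch on the genes of S phase. The INK4 proteins, encoded by Cdkn2a, Cdkn2c and Cdkn2d, bind CDK4 and CDK6 and keep cyclin D off. The CIP/KIP proteins p21 (Cdkn1a) and p27 (Cdkn1b) block the later cyclin E and CDK2 complexes. p27 is removed when IL-2 drives T cells into division, largely at the level of protein, and p21 is a classic target of p53 that other signals can also induce.

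Deposited values were log2 signals, with array medians between 3.15 and 3.23. Itgae, the gene named in the double label, lay at 6.05 to 6.86 on the Y3/CD103-/- arrays, 9.11 to 9.51 on the Y3 arrays and 7.85 to 8.06 on the WT arrays. Il2rb, which encodes IL-2Rβ, lay at 7.86 to 8.48, 7.87 to 8.5 and 8.95 to 9.36 on the arrays of the same groups. Foxp3 averaged log2 9.55 ± 0.06 in Y3/CD103-/-, 9.52 ± 0.17 in Y3 and 9.38 ± 0.09 in WT (SD, n = 3 each), and all 12 Treg and T cell markers exceeded the array median on all 9 arrays. The mean of those markers was 9.07 to 9.2 in Y3/CD103-/-, 9.18 to 9.28 in Y3 and 9.04 to 9.14 in WT. A gene is said to rise, fall or change where limma gave an adjusted p under 0.05 over the 12792 genes. By that rule 1 gene (0.00782%), Itgae itself, changed in Y3/CD103-/- versus Y3, 107 (0.836%) in Y3/CD103-/- versus WT and 101 (0.79%) in Y3 versus WT. Of the 12 T cell markers only Il2ra, the IL-2 receptor α chain, was called. It fell by 0.86 log2 in Y3/CD103-/- versus WT (limma, adjusted p = 0.0258), where 0.281% of all genes fell. With 1 array left out, this fall passed only without Y3 array 2 (0.051 to 0.0775 otherwise). Il2ra averaged 7.28 in Y3/CD103-/-, 7.5 in Y3 and 8.15 in WT, and every array of both Y3 backgrounds lay below every WT array. In Y3 versus WT it did not pass. The median gene differed by 0.15 log2 in Y3 versus WT, against 0.04 after quantile normalization and -0.02 after centring each array on its tested genes. The split of calls moved with it, with 79 rises and 22 falls as deposited, 46 and 32 after quantile normalization, and 46 and 54 after that centring. Y3 arrays 1 and 3 were the pair most alike (SD of their difference 0.29 log2, against 0.37 to 0.5 for the other pairs within a group), so results are also given with them averaged.

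Cdkn1a, which encodes p21, was the only 1 of the 9 genes that passed, and only in Y3 versus WT. Its log2 signal was 8.06, 8.73 and 8.35 on the Y3/CD103-/- arrays, 8.73, 8.28 and 8.67 on the Y3 arrays, and 7.58, 7.59 and 7.52 on the WT arrays. All 6 arrays of the Y3 backgrounds lay above all 3 WT arrays, while the Y3/CD103-/- and Y3 arrays overlapped. In Y3 versus WT it rose 1.99-fold, a log2 difference of 0.99 ± 0.20 (SE; 95% interval 0.56 to 1.43; limma, adjusted p = 0.0497). Relative to the median of all genes the rise was 0.84. In Y3/CD103-/- versus WT the log2 difference was 0.81 ± 0.20 (95% interval 0.38 to 1.24), which did not pass (limma, adjusted p = 0.0925). Between Y3/CD103-/- and Y3 it was -0.18 ± 0.20, with an interval of -0.62 to 0.25 (limma, adjusted p = 0.783). The order of group means was Y3, Y3/CD103-/- and WT, and the first pair in that order did not differ beyond its spread. Both comparisons with WT share the same 3 WT arrays, whose values lay within an SD of 0.04, against 0.34 in Y3/CD103-/- and 0.25 in Y3.

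**Figure D1:**
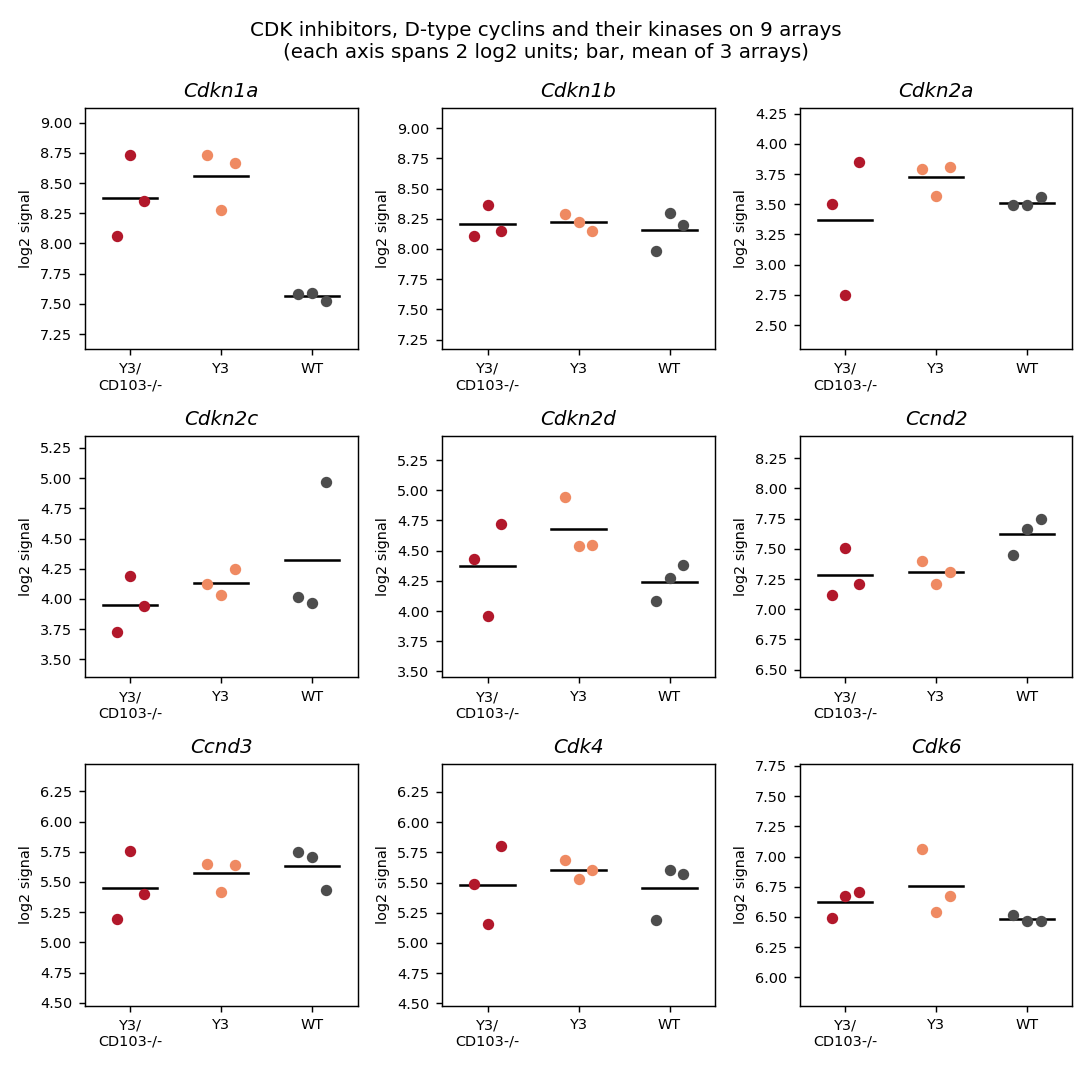
Log2 signal of each of the 9 genes (vertical axes, each spanning 2 log2 units) on the Y3/CD103-/-, Y3 and WT arrays. Points are arrays and bars are means of 3. Cdkn1a lies at 8.06 to 8.73 on the Y3/CD103-/- arrays, 8.28 to 8.73 on the Y3 arrays and 7.52 to 7.59 on the WT arrays, while Cdkn1b stays between 7.98 and 8.36 on all 9.

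The call of Cdkn1a was at the edge of the threshold, and its size varied less than its p. By p it ranked 101 among 12792 genes, the last of the 101 called. With 1 array left out, the log2 difference in Y3 versus WT stayed between 0.91 and 1.13. The call held without Y3/CD103-/- array 1 (limma, adjusted p = 0.0396) or 2 (0.0367). It did not pass without Y3/CD103-/- array 3 (0.0691), Y3 array 1 (0.215), 2 (0.0621) or 3 (0.23), or WT array 1 (0.0788), 2 (0.098) or 3 (0.106). With Y3 arrays 1 and 3 averaged, the difference was 0.92 (adjusted p = 0.224). The difference in Y3/CD103-/- versus WT was 0.64 to 0.97 with an array left out and passed in 0 of these 9 repeats (limma, adjusted p from 0.0775 to 0.214). It passed with a stricter filter on dim features (0.0471) and with the trend and robust options of eBayes (0.00686).

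**Figure D2:**
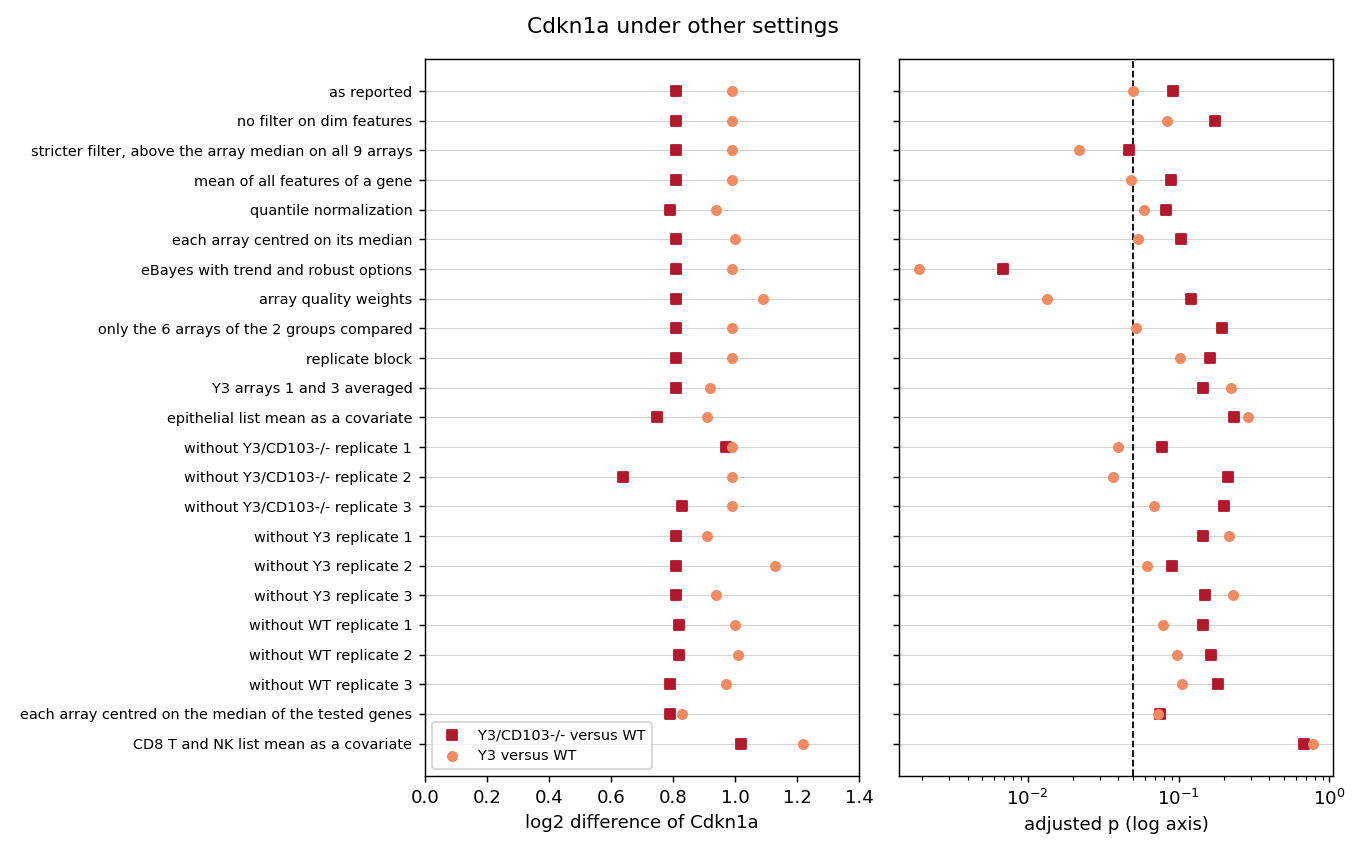
Log2 difference of Cdkn1a (left) and its adjusted p on a log axis (right) under each setting, squares for Y3/CD103-/- versus WT and circles for Y3 versus WT. The dashed line is the threshold of 0.05. The differences stay between 0.64 and 1.22, while most adjusted p-values of both comparisons lie above the line.

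Some transcripts on lists of markers of other cells also differed between the groups. The mean of 11 CD8 T and NK cell markers was log2 4.92 to 5.18 on the Y3/CD103-/- arrays, 5.03 to 5.08 on the Y3 arrays and 4.6 to 4.73 on the WT arrays, so it separated the groups as Cdkn1a did. Nkg7, Gzma and Gzmb, genes of cytotoxic granules, rose in both comparisons with WT, by 1.93, 1.3 and 1.07 log2 in Y3/CD103-/- and by 2.03, 1.22 and 0.89 in Y3. These were 3 of 8 tested in each, where 0.555% and 0.618% of all genes rose. Gzma, in Y3 versus WT, did not pass without Y3 array 1 (limma, adjusted p = 0.0796), nor Gzmb without Y3 array 1 (0.124) or 3 (0.132) or WT array 2 (0.0583) or 3 (0.052). Among the defining markers, Cd8b1 and Ncr1 exceeded the array median on 9 of 9 arrays, Cd8a on 4, Eomes on 3 and Klrb1c on 1. Cd8b1 averaged 3.85 in Y3/CD103-/-, 4.22 in Y3 and 4.47 in WT, and Ncr1 averaged 3.60, 3.69 and 3.87 in the same groups. Cd8a averaged 3.47, 3.18 and 3.05, Eomes 2.91, 3.26 and 3.02, and Klrb1c, which was not tested, 2.76, 2.95 and 2.7. These markers had no common direction, and the values of Cd8a, Eomes and Klrb1c lay near the array medians. With the mean of that list as a covariate, a setting added after the data were seen, the difference of Cdkn1a was 1.02 in Y3/CD103-/- versus WT (limma, adjusted p = 0.683) and 1.22 in Y3 versus WT (0.783). That mean separated WT from both other groups on every array, so this fit cannot divide the difference between the list and the group.

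The mean of 24 intestinal epithelial markers went the other way, at 3.82 to 5.35 on the Y3/CD103-/- arrays, 3.8 to 4.46 on the Y3 arrays and 4.75 to 5.83 on the WT arrays. Of 22 tested, 0 passed in limma, and 11 were lower in Y3 versus WT at an unadjusted p under 0.05, as 3.6% of all genes were. With it as a covariate, the difference of Cdkn1a was 0.75 in Y3/CD103-/- versus WT (adjusted p = 0.235) and 0.91 in Y3 versus WT (0.29). The mean of 19 macrophage, monocyte and dendritic cell markers was 4.15 to 4.36 in Y3/CD103-/-, 3.83 to 3.92 in Y3 and 4.28 to 4.8 in WT. At an unadjusted p under 0.05, 7 of 14 tested were lower and 1 higher in Y3 versus WT, against 3.6% and 13.4% of all genes. In Y3/CD103-/- versus Y3, 6 were higher and 0 lower, against 1.78% and 8.12%. H2-Aa, a class II MHC gene, was the only 1 that fell in Y3 versus WT, by 1.80 log2 (limma, adjusted p = 0.0264), where 0.172% of all genes fell. H2-Aa did not pass without any single Y3 array or without WT array 2 or 3 (0.0589 to 0.122). The mean of 11 B and plasma cell markers was 3.6 to 3.83 in Y3/CD103-/-, 3.41 to 3.69 in Y3 and 3.71 to 4.07 in WT, and limma called 0 of 9 tested, of which 4 lay lower and 0 higher in Y3 versus WT at unadjusted p below 0.05, against 3.6% and 13.4% of all genes. The part of these cells in the result was not tested, since the 2 covariates differ with the groups. Fewer cells of a type cannot be told apart from less RNA per cell.

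The sequences before the start sites of Cdkn1a and Cdkn1b are shown because Cdkn1a carried the only call and Cdkn1b is its closest relative among the 9. Windows from RefSeq were matched for 8 of the 9 genes, all but Ccnd2, and numbered 12 in all, and the 250 bases before each start were read on build GRCm38.p6. In the window of the upstream Cdkn1a start, chr17:29090729-29090978 on the plus strand, capitals mark matches to the p53 half-site consensus. In the windows of the downstream Cdkn1a start, chr17:29093519-29093768, and of Cdkn1b, chr6:134920151-134920400, both on the plus strand, capitals mark GGGCGG, the core bound by SP1.
Cdkn1a, upstream start: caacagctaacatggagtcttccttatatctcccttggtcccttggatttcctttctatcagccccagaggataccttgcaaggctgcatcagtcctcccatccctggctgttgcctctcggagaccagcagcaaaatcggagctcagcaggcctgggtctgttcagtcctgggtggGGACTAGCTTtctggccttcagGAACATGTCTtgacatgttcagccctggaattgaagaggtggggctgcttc
Cdkn1a, downstream start: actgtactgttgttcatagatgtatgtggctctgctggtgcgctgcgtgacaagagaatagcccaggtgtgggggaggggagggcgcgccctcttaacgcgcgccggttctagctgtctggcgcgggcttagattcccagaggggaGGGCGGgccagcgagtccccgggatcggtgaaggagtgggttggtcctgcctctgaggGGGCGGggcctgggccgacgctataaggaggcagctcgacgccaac
Cdkn1b: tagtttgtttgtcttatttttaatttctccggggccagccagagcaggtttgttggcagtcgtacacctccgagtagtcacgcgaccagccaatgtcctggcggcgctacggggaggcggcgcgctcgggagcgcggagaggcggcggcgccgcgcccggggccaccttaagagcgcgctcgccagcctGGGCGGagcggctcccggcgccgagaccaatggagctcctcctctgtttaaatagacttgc

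Both strands were searched, and no match shown in capitals shares bases with another motif of the search. The 2 half-site matches of Cdkn1a began 73 and 51 bases before the upstream start. A half-site match was found in 2 of the 12 windows, those of the upstream Cdkn1a start and of Cdkn2d (where it shares bases with a GGGCGG), against 7.13% of 32851 RefSeq windows of the same length. GGGCGG was found in 8 of the 12, against 32.7% of all windows. TTTNNCGC, a loose form of the E2F site, was found in 3, both Cdkn2a windows and that of Cdk6, against 4.28%. TTCNNNGAA, the core bound by STAT factors, was found in 0 of the 12, against 7.02%. These are matches of letters in short windows, and the arrays do not say which start site was used.

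Cdkn1b, which encodes p27, showed no difference beyond its spread. It lay at 8.11, 8.36 and 8.15 on the Y3/CD103-/- arrays, 8.29, 8.22 and 8.15 on the Y3 arrays, and 7.98, 8.3 and 8.2 on the WT arrays. The 3 groups overlapped throughout. The 95% interval of its log2 difference was -0.35 to 0.33 in Y3/CD103-/- versus Y3, -0.29 to 0.38 in Y3/CD103-/- versus WT and -0.28 to 0.40 in Y3 versus WT. The last of these allows at most a 1.31-fold higher or a 1.22-fold lower signal in Y3. Within each array, Cdkn1a minus Cdkn1b was -0.05 to 0.36 log2 in Y3/CD103-/-, 0.06 to 0.52 in Y3 and -0.71 to -0.4 in WT. Only the change between groups in that difference can be read, and it was 0.77 in Y3/CD103-/- versus WT and 0.94 in Y3 versus WT. Each comparison with WT gave p = 0.1 by an exact 2-sided permutation test, the smallest that 3 arrays against 3 allow. Cdkn1a alone gave the same p by that test in both comparisons, so the subtraction adds no separate support.

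Of the 3 INK4 inhibitors, 0 passed in limma in any comparison, and 0 had an unadjusted p below 0.05 in either direction. Over all genes, 1.78% to 13.4% were so placed in a given direction and comparison, so 0 of 3 says little. Cdkn2d, which encodes p19INK4d, lay at 4.43, 3.96 and 4.72 on the Y3/CD103-/- arrays, 4.94, 4.54 and 4.55 on the Y3 arrays, and 4.08, 4.27 and 4.38 on the WT arrays. The Y3 arrays lay above the WT arrays, and the Y3/CD103-/- arrays overlapped both. Its log2 difference was 0.43 ± 0.21 (SE) in Y3 versus WT (95% interval -0.03 to 0.90; limma, adjusted p = 0.325) and 0.13 in Y3/CD103-/- versus WT (adjusted p = 0.844). Relative to the median of all genes the difference in Y3 was 0.28.

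Cdkn2a encodes p16INK4a and, from another start and reading frame, the ARF protein that stabilizes p53. Its single feature does not separate the products here. Cdkn2a lay at 3.5, 2.75 and 3.85 on the Y3/CD103-/- arrays, 3.79, 3.57 and 3.81 on the Y3 arrays, and 3.49, 3.49 and 3.56 on the WT arrays. It exceeded the array median on 8 of 9 arrays. The lowest value, on Y3/CD103-/- array 2, set the sign in Y3/CD103-/- versus WT, where the log2 difference was -0.15 with that array and 0.16 without it. In Y3 versus WT the groups did not overlap, but the difference was 0.21, with an interval of -0.33 to 0.74 (limma, adjusted p = 0.685). Relative to the median of all genes it was 0.06, and it was 0.15 after quantile normalization and 0.04 with arrays centred on their tested genes.

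Cdkn2c encodes p18INK4c, an inhibitor that restrains lymphocyte division. It lay at 3.73 to 4.19 on the Y3/CD103-/- arrays and 4.03 to 4.25 on the Y3 arrays. On the WT arrays it stood at 4.02, 3.97 and 4.97. The value of WT array 3 set its order: the log2 difference in Y3 versus WT was -0.19 with that array and 0.14 without it, and in Y3/CD103-/- versus WT it was -0.37 with all arrays (limma, adjusted p = 0.579) and -0.04 without WT array 3 (0.957).

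Of the D-type cyclins, Ccnd2 had a lower mean in both Y3 backgrounds than in WT, which did not pass. It lay at 7.12, 7.51 and 7.21 on the Y3/CD103-/- arrays, 7.4, 7.21 and 7.31 on the Y3 arrays, and 7.45, 7.66 and 7.75 on the WT arrays. All Y3 arrays lay below all WT arrays, and 1 Y3/CD103-/- array lay above the lowest WT array. The log2 difference was -0.34 ± 0.16 (SE) in Y3/CD103-/- versus WT (95% interval -0.70 to 0.02; limma, adjusted p = 0.413) and -0.31 ± 0.16 in Y3 versus WT (-0.67 to 0.05; adjusted p = 0.358). Neither passed. Leaving out any 1 array kept its sign, at -0.45 to -0.25 in Y3/CD103-/- versus WT and -0.40 to -0.25 in Y3 versus WT. Relative to the median of all genes it was -0.37 and -0.46. In Y3/CD103-/- versus Y3 it was -0.03, with an interval of -0.39 to 0.33.

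Ccnd3, the D-type cyclin that expanding lymphocyte precursors depend on, showed no difference beyond the spread. It lay at 5.19 to 5.76 on the Y3/CD103-/- arrays, 5.42 to 5.65 on the Y3 arrays and 5.43 to 5.75 on the WT arrays. The log2 difference was -0.18 in Y3/CD103-/- versus WT (95% interval -0.58 to 0.23) and -0.06 in Y3 versus WT (-0.46 to 0.34). Within each array, Cdkn1a minus Ccnd3 was 2.86 to 2.96 in Y3/CD103-/-, 2.86 to 3.08 in Y3 and 1.83 to 2.09 in WT. For Ccnd2 the same difference was 0.94 to 1.21 in Y3/CD103-/-, 1.07 to 1.36 in Y3 and -0.22 to 0.14 in WT. For both cyclins each comparison with WT gave p = 0.1 by the exact permutation test, again the smallest possible. As with Cdkn1b, this repeats the separation of Cdkn1a alone.

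Neither kinase passed in limma in any comparison. At an unadjusted p below 0.05, 0 of 2 were higher or lower, where 1.78% to 13.4% of all genes were in a given direction and comparison. Cdk6, the D-cyclin kinase abundant in blood cells, lay at 6.49, 6.67 and 6.71 on the Y3/CD103-/- arrays, 7.06, 6.54 and 6.67 on the Y3 arrays, and 6.52, 6.47 and 6.47 on the WT arrays. The Y3 arrays lay above the WT arrays, by 0.02 at the nearest, and the Y3/CD103-/- arrays overlapped them. Its log2 difference was 0.27 ± 0.17 (SE) in Y3 versus WT (95% interval -0.10 to 0.64; limma, adjusted p = 0.434) and 0.14 in Y3/CD103-/- versus WT (adjusted p = 0.775). Relative to the median of all genes the difference in Y3 was 0.12, and it was 0.11 after quantile normalization and 0.10 with arrays centred on their tested genes. Without Y3 array 1, which had the highest value, the difference in Y3 versus WT was 0.11. Cdk4, its close relative, ranged from 5.16 to 5.8 over all 9 arrays, and its differences were -0.12, 0.03 and 0.15 in Y3/CD103-/- versus Y3, Y3/CD103-/- versus WT and Y3 versus WT.

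**Figure D3:**
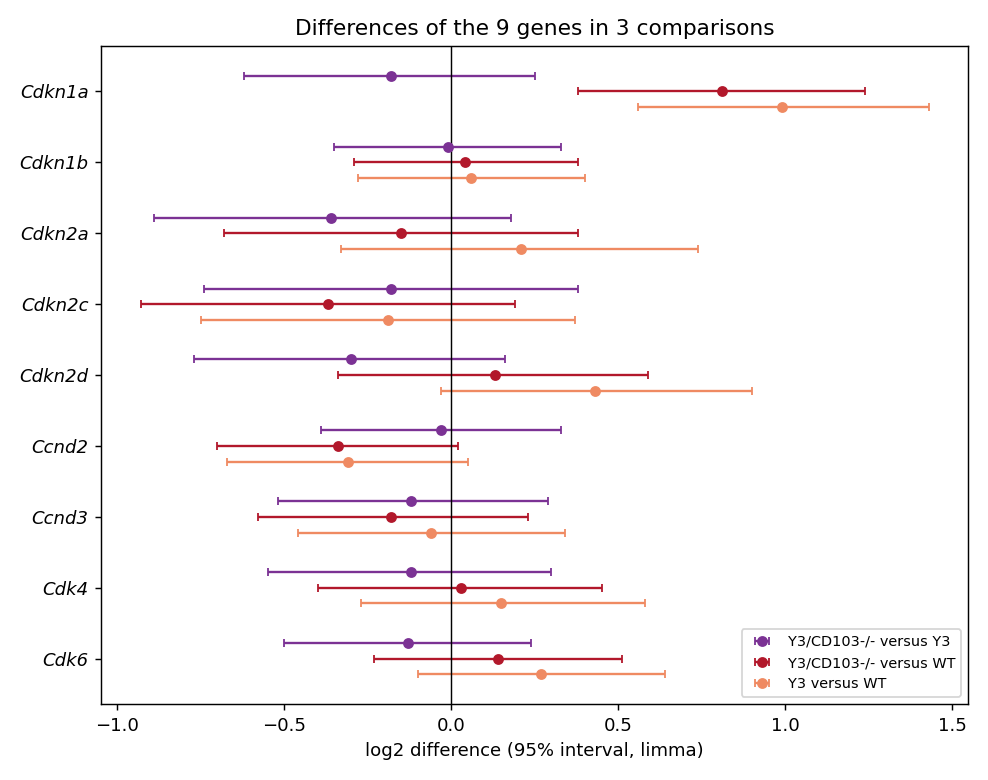
Log2 difference of each of the 9 genes (points) with its 95% interval from limma (bars) in Y3/CD103-/- versus Y3, Y3/CD103-/- versus WT and Y3 versus WT. Only the intervals of Cdkn1a in the comparisons with WT, 0.38 to 1.24 and 0.56 to 1.43, leave out 0.

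Counted together, 1 of the 9 genes rose in Y3 versus WT, where 0.618% of all genes did, and 0 fell, where 0.172% did. At an unadjusted p below 0.05, 1 was higher, as 13.4% of all genes were, and 0 lower, as 3.6% were. Of the 9 differences 6 were above 0, as were 70.5% of all genes. The groups did not overlap for 4 genes on the higher side (Cdkn1a, Cdkn2a, Cdkn2d and Cdk6), where 19% of all genes were so placed, and for Ccnd2 on the lower side, where 4.93% were. The median difference of the 9 was 0.15, equal to that of all genes. For Y3/CD103-/- versus WT 0 of 9 passed in limma, where 0.555% of all genes rose and 0.281% fell. Cdkn1a alone was higher at an unadjusted p below 0.05, as 7.9% of all genes were, and 0 were lower, as 5.35% were. Cdkn1a was also the only one of the 9 without overlap, higher as for 10.7% of all genes, and 0 were placed lower, as 6.68% were. Above 0 lay 5 of the 9 differences, and 55.1% of all. Their median was 0.03, against 0.04 for all genes. Between Y3/CD103-/- and Y3 all 9 differences were below 0, where 33.8% of all genes lay above 0, and 0 of 9 passed in limma. At an unadjusted p below 0.05, 0 were higher or lower, against 1.78% and 8.12% of all genes, and 0 had groups apart, against 4.11% higher and 14.4% lower. Their median was -0.13 against -0.1 for all genes, and after quantile normalization 4 of the 9 lay above 0.

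Of 27 other genes of G1 and the entry into S phase, 21 were tested, and 0 changed in limma in any comparison. In Y3 versus WT 3 were higher at an unadjusted p under 0.05, where 13.4% of all genes were. They were E2f5, an E2F of the repressing kind (0.70), Fbxw7, which marks cyclin E for destruction (0.53), and Cdc25a, the phosphatase that activates CDK2 (0.47), all in log2. Cdc25a, in Y3/CD103-/- versus WT, differed by 0.56 (limma, adjusted p = 0.23), Tfdp2, a partner of E2F, by -0.33 and Skp2, the ligase that removes p27, by 0.33. Between Y3/CD103-/- and Y3 the smallest p belonged to Rbl1 (-0.48), E2f5 (-0.61) and Mnat1 (-0.40), and 2 of the 21 were lower at an unadjusted p under 0.05, where 8.12% of all genes were. Cdkn2b, the INK4 neighbour of Cdkn2a, differed by 0.28 in Y3 versus WT (adjusted p = 0.383). Ccnd1 and Cdkn1c exceeded the array median on 2 and 1 of the 9 arrays and were not tested.

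Of 18 tested target genes of p53 other than Cdkn1a, 0 passed in limma in any comparison. The gene of p53 itself, Trp53, was not among the 18. Their median log2 difference was -0.09 in Y3/CD103-/- versus WT and 0 in Y3 versus WT, against 0.04 and 0.15 for all genes. At an unadjusted p under 0.05, 1 was higher and 3 lower in each. Of all genes, 7.9% were higher and 5.35% lower in Y3/CD103-/- versus WT, and 13.4% higher and 3.6% lower in Y3 versus WT. Fas, the death receptor, was the higher one, with a log2 difference of 0.75 in Y3/CD103-/- versus WT (limma, adjusted p = 0.167) and 1.07 in Y3 versus WT (0.0555). Tnfrsf10b, the mouse TRAIL receptor, differed by -0.95 (0.0685) and -0.80 (0.107) in these comparisons. Trp53inp1 differed by -0.82 in Y3/CD103-/- versus WT (0.0579), and Plk2 by -0.61 in Y3 versus WT (0.221). Between Y3/CD103-/- and Y3 the p-values were smallest for Trp53inp1 (-0.38), Mdm4 (-0.27) and Ei24 (-0.41).

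Polycomb proteins keep the locus of Cdkn2a silent. Of 11 such genes tested, 1 fell in Y3/CD103-/- versus WT, where 0.281% of all genes fell, and the others did not pass. It was Cbx7, which reads the repressive histone mark there. Its log2 signal was 4.38, 4.73 and 4.52 on the Y3/CD103-/- arrays, 4.93, 4.95 and 4.92 on the Y3 arrays, and 5.37, 5.42 and 5.88 on the WT arrays, with no overlap between groups. The log2 difference was -1.01 ± 0.18 (SE) in Y3/CD103-/- versus WT (limma, adjusted p = 0.0259), -0.62 ± 0.18 in Y3 versus WT (0.125) and -0.39 in Y3/CD103-/- versus Y3 (0.498). With 1 array left out the fall passed 3 times of 9. It failed without Y3/CD103-/- array 1 (0.0796) or 3 (0.0988), Y3 array 1 (0.0561) or 3 (0.0584), or WT array 2 (0.0565) or 3 (0.0638). Phc1 differed by 0.39 and Bmi1 by 0.32 in Y3/CD103-/- versus WT, and Phc1 by 0.50 and Ring1 by 0.66 in Y3 versus WT. Ezh2 differed by -0.39 and Ring1 by -0.38 in Y3/CD103-/- versus Y3. Most of the list did not share the direction of Cbx7 in the comparisons with WT. Positive differences numbered 8 of 11 in Y3/CD103-/- versus WT and 10 of 11 in Y3 versus WT, against 55.1% and 70.5% of all genes. The list medians were 0.19 and 0.34, against 0.04 and 0.15 for all genes.

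Upstream inputs to the D-type cyclins and p27 also had 0 of 18 tested genes that passed in limma. At an unadjusted p under 0.05, 3 were higher and 0 lower in Y3/CD103-/- versus WT, where 7.9% and 5.35% of all genes were. In the comparison of Y3 with WT 5 were higher and 0 lower, where 13.4% and 3.6% of all genes were. Stat5a, a transcription factor activated by the IL-2 receptor, differed by 0.72 in Y3/CD103-/- versus WT (adjusted p = 0.0881) and 0.61 in Y3 versus WT (0.123). Stat5b differed by 0.48 in Y3/CD103-/- versus WT, and Tsc2, a brake on mTOR, by 0.47 in that comparison and 0.50 in Y3 versus WT. Akt2 differed by 0.45 in Y3 versus WT, and in Y3/CD103-/- versus Y3 Mtor by -0.44, Pik3cd by -0.33 and Pim2 by -0.32.

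Among 11 quiescence factors 0 passed in limma. Klf2, which keeps T cells resting and circulating, differed by -0.71 in Y3/CD103-/- versus WT (adjusted p = 0.0799) and -0.70 in Y3 versus WT (0.0832). Foxp1 differed by -0.47 and -0.49 in the same comparisons, Lef1 by -0.80 in Y3/CD103-/- versus WT and -0.64 in Y3/CD103-/- versus Y3, and Foxj1 by 0.38 in Y3 versus WT. Bach2 differed by -0.69 and Tob1 by 0.17 in Y3/CD103-/- versus Y3. At an unadjusted p under 0.05, 3 of the 11 were lower and 0 higher in Y3/CD103-/- versus WT, where 5.35% of all genes were lower, and 2 lower and 0 higher in Y3 versus WT, where 3.6% were.

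Genes of S phase and mitosis are transcribed in dividing cells. Of 25 tested, 22 had a positive difference in Y3/CD103-/- versus WT, where 55.1% of all genes did. In Y3 versus WT 21 did, where 70.5% of all genes did. Their medians were 0.30 and 0.19, against 0.04 and 0.15 for all genes. In Y3 versus WT 0 of the 25 passed in limma, where 0.618% of all genes rose and 0.172% fell. Top2a, the topoisomerase of dividing cells, was the only member that passed, in Y3/CD103-/- versus WT, where 0.555% of all genes rose. It lay at 5.07, 5.09 and 4.79 on the Y3/CD103-/- arrays, 4.91, 4.78 and 5.03 on the Y3 arrays, and 4.09, 4.06 and 4.25 on the WT arrays. The groups on the Y3 backgrounds overlapped each other and lay above WT. Top2a rose by 0.85 ± 0.15 log2 (SE) in Y3/CD103-/- versus WT (limma, adjusted p = 0.0347), while in Y3 versus WT it differed by 0.77 ± 0.15 and did not pass (0.0513). With any 1 of the 9 arrays left out the rise did not pass (0.0513 to 0.0971). Mcm5, a subunit of the replicative helicase, differed by 0.85 (0.0926) and 0.87 (0.0886), and Kif11, a mitotic kinesin, by 0.58 and 0.41. Mki67, which encodes the proliferation marker Ki-67, differed by 0.66 (0.288) and 0.52 (0.326). At an unadjusted p under 0.05, 5 of the 25 were higher and 0 lower in each comparison with WT, where 7.9% and 13.4% of all genes were higher. The smallest p in Y3/CD103-/- versus Y3 belonged to Ube2c (0.76), Aurkb (0.42) and Ccnb2 (0.56), and limma called 0, of which 1 lay higher and 0 lower at unadjusted p below 0.05, against 1.78% and 8.12% of all genes.

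**Figure D4:**
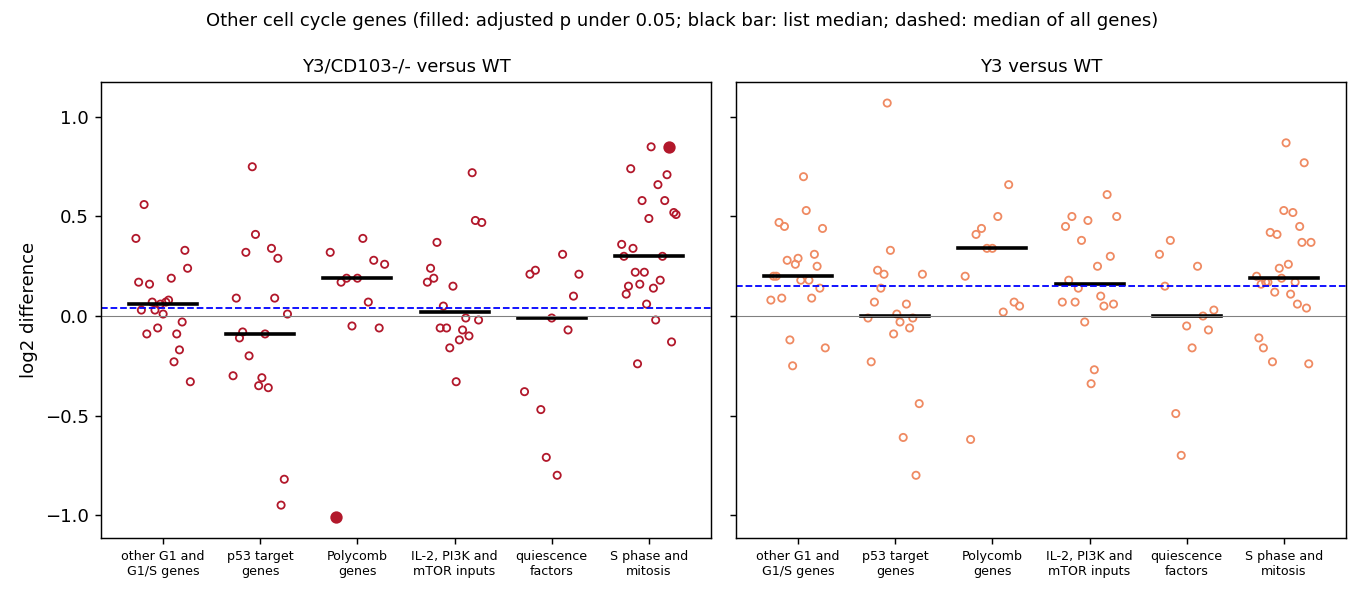
Log2 differences of the tested genes of 6 cell cycle lists (one circle per gene, filled where the adjusted p was under 0.05) in Y3/CD103-/- versus WT and Y3 versus WT. Black bars are list medians and the dashed line is the median of all genes, 0.04 and 0.15. The filled points are Cbx7 at -1.01 and Top2a at 0.85, both in Y3/CD103-/- versus WT.

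The genes whose signal followed Cdkn1a most closely over the 9 arrays were Sla, an adaptor that dampens T cell receptor signals (Pearson r = 0.976), Podnl1 (0.974), the deacetylase Sirt2 (0.974) and 2610524H06Rik (0.972). With the group means taken out, r lay between 0.85 and 0.899 for these 4. They were chosen as the closest of the genes tested, so these values are a description, and the arrays share their groups and scaling. Podnl1 rose in Y3 versus WT by 0.97 log2 (limma, adjusted p = 0.0246) and 2610524H06Rik by 1.53 (0.0431), while Sla differed by 0.42 (0.182) and Sirt2 by 0.77 (0.0601). With 1 array left out, the rise of Podnl1 passed 4 times of 9 and that of 2610524H06Rik 3 times. It failed for Podnl1 without any 1 of the Y3 arrays or WT arrays 2 and 3 (0.0583 to 0.144), nor for 2610524H06Rik without Y3/CD103-/- array 3, Y3 array 1 or 3, or any 1 WT array (0.0593 to 0.211). Among the other 8 cell cycle genes of this family, Cdk6 had the highest r with Cdkn1a (0.737) and Ccnd2 the lowest (-0.47), followed by Cdkn2c (-0.212).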

How the data were processed

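The authors deposited log2 signals for 39137 features of 9 arrays, made with RMA per the submitters' processing notes. Its version and settings, and the genome build, were not given in the sources used here. That the unit is log2 follows from the range (0.115 to 14.05). RNA was amplified and labelled with biotin, per the labels' protocols, and no batch is named. The annotation paired 23521 features with 1 gene, 1814 with several and 13802 with none. For genes with several features the brightest was kept. A gene was tested if it exceeded its array's median on at least 3 of 9 arrays.

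Groups were compared with limma 3.58.1 in R 4.3.3, as 1 model of group means over all 9 arrays without a block, 2-sided, with Benjamini-Hochberg adjustment over 12792 genes in each comparison. The number of arrays limits the precision, and the 95% interval of the median gene reached 0.45 log2 to either side. In a simulation of Y3 versus WT on 12792 genes, the model found 46% of 2-fold and 95% of 4-fold changes, with 6 wrong calls. Wrong calls were 11 for Y3/CD103-/- versus Y3 and 4 for Y3/CD103-/- versus WT. The simulated noise was independent, with no shift shared by an array and no likeness between arrays. Its wrong calls therefore do not cover those features of these data.

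The 9 genes, the 11 gene lists and the alternatives were chosen with earlier results of these data known. The named genes were all 9, list genes that changed, the 3 of smallest p per cell cycle list and comparison, and the 4 genes most like a changed member. Mki67, Cdkn2b, Ccnd1, Cdkn1c, Cd8a, Cd8b1, Ncr1, Eomes and Klrb1c were named after their values were seen.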

Additional observations from a re-analysis of the deposited data

How the results depend on the processing

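Cdkn1a kept its direction in both comparisons with WT under all 22 alternatives. In Y3 versus WT its adjusted p ranged from 0.001901 to 0.7829 and passed in 6 of them, and in Y3/CD103-/- versus WT it passed in 2. The count of the 9 genes that changed in Y3 versus WT, 1 as reported, was 0 without the filter, after quantile normalization, with arrays centred on their median or (added after seeing the data) on their tested genes, with only the 6 arrays compared, with the replicate block, with Y3 arrays 1 and 3 averaged and with the epithelial covariate, and 0 to 1 with an array left out. In Y3/CD103-/- versus WT, 0 as reported, it was 1 with the stricter filter and 1 with the trend and robust options. The number of all genes that changed in Y3/CD103-/- versus WT, 107 as reported, was 54 without the filter, 215 with the stricter one, 309 with trend and robust options, 60 with array weights, 17 with 6 arrays, 62 with Y3 arrays averaged, 21 with the epithelial covariate, and 29 to 72 with an array left out. In Y3 versus WT, 101 as reported, the same settings gave 52, 222, 346, 346, 63, 12 and 5, and 8 to 120 with an array left out. In Y3/CD103-/- versus Y3, 1 as reported, it was 3 with the mean of features, 10 with trend and robust options, 9 with weights and 1 to 2 with an array left out. The labels do not say whether replicate numbers pair the arrays. Same-numbered deviations correlated at -0.04 to 0.11, but differently numbered arrays were not compared, so these values cannot decide it. With the replicate block, Cdkn1a in Y3 versus WT differed by 0.99 (limma, adjusted p = 0.1023). With that block 55 genes changed in Y3/CD103-/- versus WT and 54 in Y3 versus WT. Small differences that were not called turned sign. After quantile normalization, in Y3/CD103-/- versus Y3, Cdkn1b was 0.04, Ccnd2 0.06, Ccnd3 0.02 and Cdk4 0.01; in Y3/CD103-/- versus WT Cdk4 was -0.02; in Y3 versus WT Cdkn1b and Cdk4 were both -0.03. With centring on the tested genes, in Y3/CD103-/- versus Y3, Cdkn1b was 0.14, Ccnd2 0.12, Ccnd3 0.03, Cdk4 0.02 and Cdk6 0.02, and in Y3 versus WT Cdkn1b was -0.11 and Cdk4 -0.01. With an array left out, in Y3/CD103-/- versus Y3, Cdkn1b ranged from -0.09 to 0.04, Ccnd2 from -0.14 to 0.06, Ccnd3 from -0.27 to 0.01, Cdk4 from -0.28 to 0.04 and Cdk6 from -0.24 to 0.02; in Y3/CD103-/- versus WT, Cdkn1b from -0.05 to 0.11, Cdkn2a from -0.39 to 0.16, Cdkn2d from -0.05 to 0.33 and Cdk4 from -0.13 to 0.19; in Y3 versus WT, Cdkn1b from -0.03 to 0.13, Cdkn2c from -0.36 to 0.14 and Ccnd3 from -0.16 to 0.02. The cause was not tested.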
